A study of Sus scrofa with 12 samples.

Results

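Complement components, coagulation factors and carrier proteins that the liver secretes into plasma were followed as 46 listed genes in liver RNA from 12 adult German Landrace pigs. A gene was counted as measured when the probe set annotation named it as the single gene of a probe set on the Affymetrix porcine array, which held for 31 of the 46. Where a gene had several probe sets, the one with the highest mean over the 12 arrays was used. All 31 measured genes passed the filter on low signal, among 5810 named genes that did so. The pigs were labelled for stress response (low or high) and for aggressiveness (low or high), and the labels do not say how either trait was scored. Crossing the traits gave 4 groups of 3 pigs (2 males and 1 female in each), and 6 pigs per level of a trait. Groups are written as stress response and then aggressiveness, and high-low 3 is the third pig with high stress response and low aggressiveness. No agent or allele is named in the labels, and all animals shared breed and tissue. Nothing else in the labels describes the animals' origin, so p-values measure the spread between these 12 animals only.

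Hepatocytes make most of the protein of blood plasma. Complement is a cascade of proteases: the classical and lectin routes start from antibody or from sugars on microbes, the alternative route amplifies C3 cleavage, and the terminal components assemble into a pore in the target membrane. Coagulation is a second cascade, which ends when thrombin turns fibrinogen into fibrin, and plasmin later dissolves the clot. Carriers such as albumin, transthyretin and retinol-binding protein move hormones, fatty acids and vitamins. Many of these proteins are acute phase proteins, whose output from the liver changes during inflammation.

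The complement genes measured were C1R, C1S, C2, C4A and MBL2 of the classical and lectin routes, C3, CFB and CFD of the alternative route, C5, C7, C8A, C8B, C8G and C9 of the terminal pathway, and the regulator C4BPA. Of the coagulation and fibrinolysis genes, F5, F9, F12, KLKB1, KNG1, PROC, PROS1, FGB, FGG and PLG were measured. The carriers and protease inhibitors were ALB, TTR, RBP4, AHSG, A2M and SERPINA1. The 15 listed genes that no probe set carried as its single symbol were MASP1, MASP2, MBL1, C6, CFI, F2, F7, F10, F11, F13B, FGA, SERPINC1, SERPINF2, FETUB and CP, and they were not analysed here. Signals are fluorescence intensities scaled per array by the authors. They depend on the probe as well as on the transcript, so levels were compared between animals and not between genes. The members were among the brightest probe sets: 22 of 31 had a mean signal above 10000, against 3.02% of the 15999 probe sets tested, and the highest signal on any array was 66150. In bulk liver RNA, fewer hepatocytes and less RNA per hepatocyte cannot be told apart. Hepatocyte identity was checked on 11 measured marker genes outside the list, whose summed signal lay between 193338 and 237668 in all animals.

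The deposited values carried a shift that most members shared within an animal. The pig low-high 3, a female, had the highest signal of the 12 for 17 of the 31 members, although it was highest for 14.7% of all probe sets tested. The pig low-low 2 was lowest for 11 of 31, against 8.94% of all probe sets. Averaged over the members, low-high 3 lay 0.31 above the 12-animal mean on the log2 scale and low-low 2 lay 0.15 below it. After quantile normalization, which gives every array the same distribution of signals, these deviations were 0.19 and -0.05. Albumin, the main carrier of fatty acids in plasma, shows the shared shift. Its signals were 50016, 35648 and 40252 in low-low pigs, 50536, 39361 and 61125 in low-high pigs, 41598, 48522 and 52631 in high-low pigs, and 46606, 49050 and 52119 in high-high pigs. Its lowest and highest values belonged to the same pigs, low-low 2 and low-high 3, and the 4 groups overlapped. The 3 arrays of high-high 3 (0.953), high-low 3 (0.957) and low-high 3 (0.957) had the lowest median correlation with the others.

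**Figure D1:**
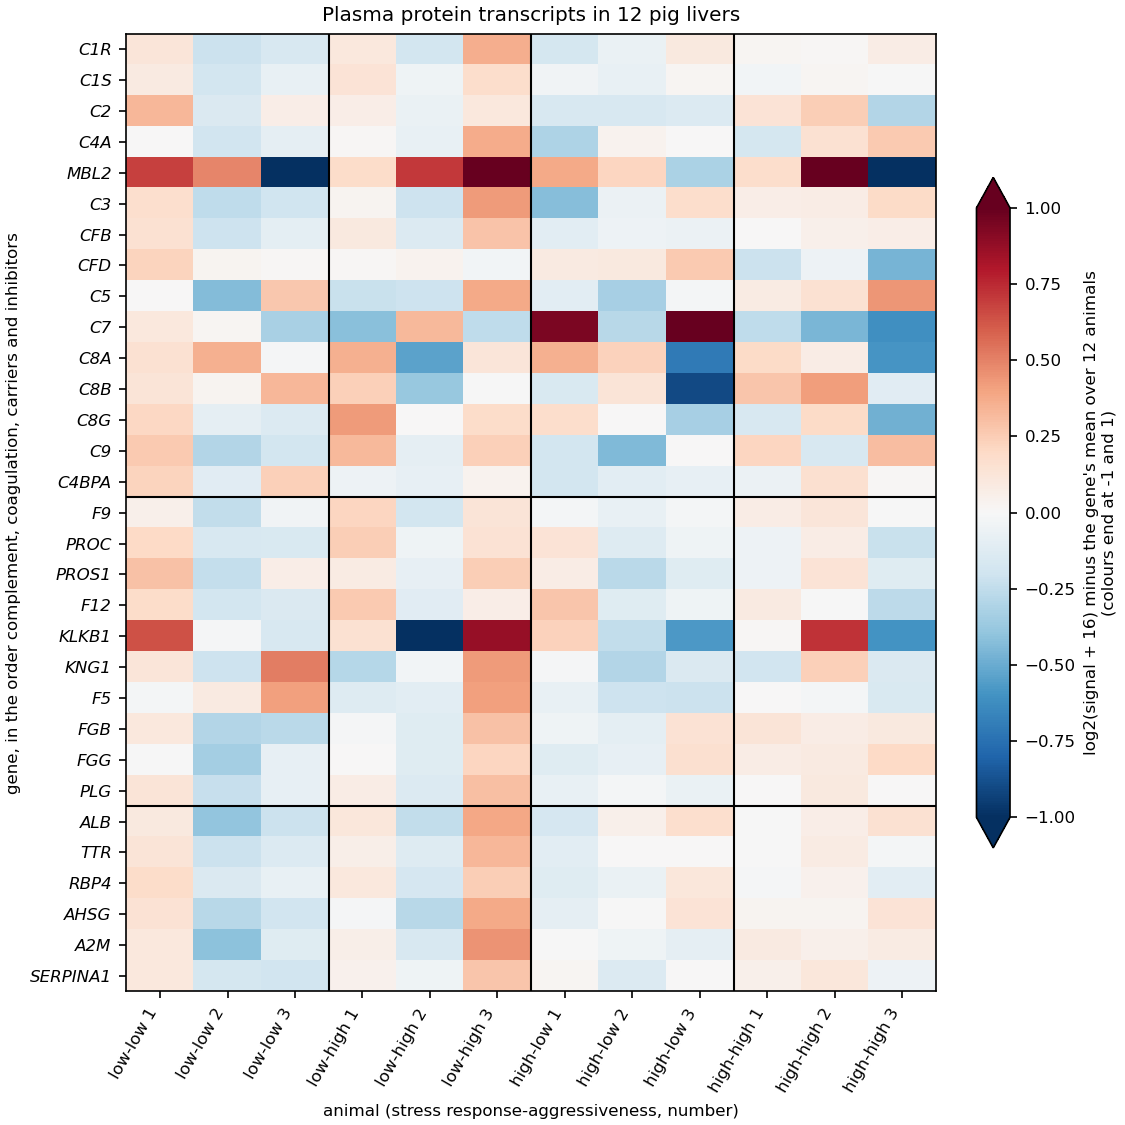
Each cell gives the log2(signal + 16) of 1 gene in 1 animal minus that gene's mean over the 12 animals, with genes in rows (complement, then coagulation and fibrinolysis, then carriers and inhibitors) and animals in columns. Most rows are pale and share a warm column for low-high 3 and a cool one for low-low 2, while MBL2, KLKB1, C7, C8A and C8B vary on their own.

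**Figure D2:**
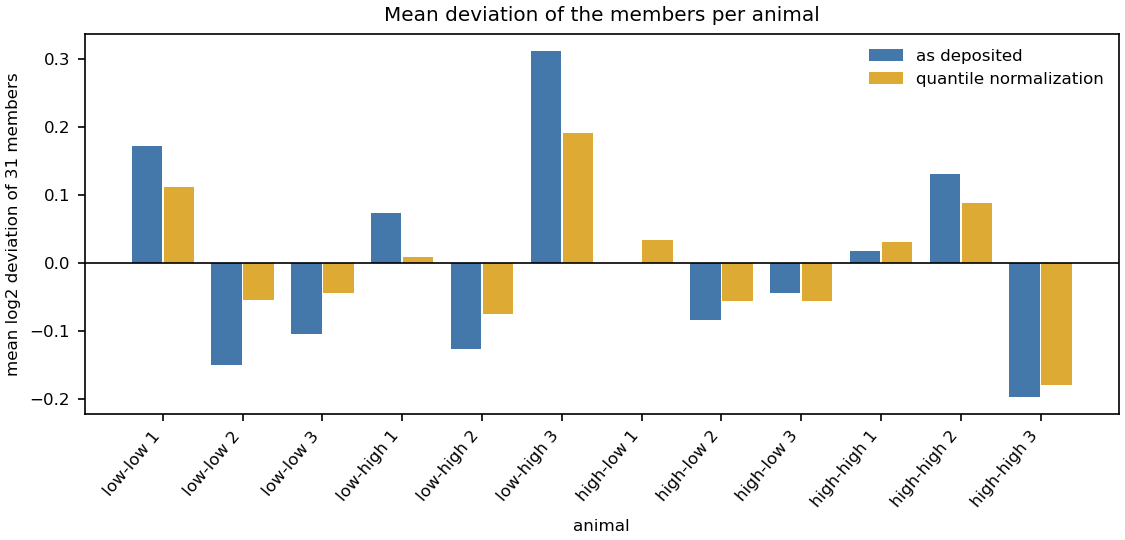
Bars give the mean log2 deviation of the 31 members in each animal from the 12-animal mean, for values as deposited (blue) and after quantile normalization (yellow). The bar of low-high 3 goes from 0.31 to 0.19, and that of high-high 3 is -0.20 and -0.18. High-high 3 had the lowest MBL2 signal of all animals, and 13 of its 31 members lay above their own mean. Over the 22 members with a mean signal above 10000 its deviation was 0.01 as deposited and 0.03 after quantile normalization.

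The first comparison asked whether these transcripts differ between pigs with high and with low stress response. None of the 31 members passed an adjusted p of 0.05 in limma's moderated test, and the 15999 probe sets gave 0 calls (0%). At an unadjusted p of 0.05 the count was 0 of 31, against 8.16% of all probe sets. The levels were free of overlap for 0 of 31 members, against 0.538%. The members' median log2 difference, high minus low, was -0.03, with 9 above 0 and 22 below, while 55.7% of all probe sets were above 0 and their median was 0.03. The number above 0 was 22 when only males were used and 17 without high-high 3, so the split between directions depended on which animals were included. For 26 of the 31 members the 95% interval of the difference lay within a fold of 1.5 in either direction. The 5 others were MBL2, C7, C8A, C8B and KLKB1, the members with the largest spread between animals of a group.

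Among complement genes, 3 of 15 were above 0 and 12 below for stress response. C8G encodes the gamma chain of the terminal component C8. Its signals were 14314, 12721 and 10076 in high-low pigs and 11339, 14427 and 9078 in high-high pigs, and 14659, 11897 and 11506 in low-low pigs and 17056, 12702 and 14373 in low-high pigs. High-high 3 and high-low 3 were lowest and low-high 1 highest. The levels overlapped, and the difference was -0.20 ± 0.16 (SE; 95% interval -0.55 to 0.15), and -0.08 without high-high 3. C3, on which all complement routes converge, differed by 0.01 (interval -0.31 to 0.33), and CFB, which with C3 forms the alternative route convertase, by -0.03 (-0.26 to 0.20). C9, which polymerises into the membrane pore, differed by -0.09 (-0.38 to 0.21), and C4BPA, a chain of the inhibitor that binds C4b, by -0.09 (-0.34 to 0.17).

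Among coagulation and fibrinolysis genes, 3 of 10 were above 0 and 7 below. F5, the cofactor that speeds thrombin formation, had the smallest p of all members. Its signals were 4424, 4032 and 4008 in high-low pigs and 4686, 4590 and 4204 in high-high pigs, and 4609, 4950 and 6209 in low-low pigs and 4263, 4342 and 6212 in low-high pigs. The 6 high-stress pigs averaged 4324 ± 287 (SD) and the 6 low-stress pigs 5098 ± 895, and 2 low-stress pigs stood above the rest. The levels overlapped, and the difference was -0.22 ± 0.13 (SE; interval -0.51 to 0.07), with an adjusted p of 0.699. KNG1, the kininogen from which bradykinin is released, averaged 9529 ± 1281 and 10971 ± 2532, a difference of -0.18 ± 0.16. Without low-low 3, which had the highest KNG1 signal, it was -0.07, and F5 was at -0.14 without the same pig. PROS1, the cofactor of activated protein C, differed by -0.12 ± 0.12.

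The fibrinogen chains had positive values. FGG was 44960 ± 3933 (SD, n = 6) in high-stress pigs and 41878 ± 5241 in low-stress pigs, a difference of 0.11 ± 0.11 (SE; interval -0.14 to 0.35). FGB gave 0.10 ± 0.11 (-0.15 to 0.35). Both chains are acute phase products, and neither difference exceeded the spread between animals. PLG, the precursor of plasmin, differed by -0.02 (-0.25 to 0.22).

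Carriers and inhibitors were split evenly, 3 above 0 and 3 below. ALB differed by 0.09 (-0.21 to 0.39), TTR, the thyroxine carrier, by -0.01 (-0.26 to 0.23), and RBP4, the retinol carrier, by -0.05 (-0.30 to 0.20). AHSG, or fetuin-A, which keeps calcium phosphate in solution, differed by 0.07 (-0.19 to 0.34). A2M, a broad protease trap, gave 0.03 (-0.23 to 0.29), and SERPINA1, the inhibitor of neutrophil elastase, 0.00 (-0.23 to 0.23).

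**Figure D3:**
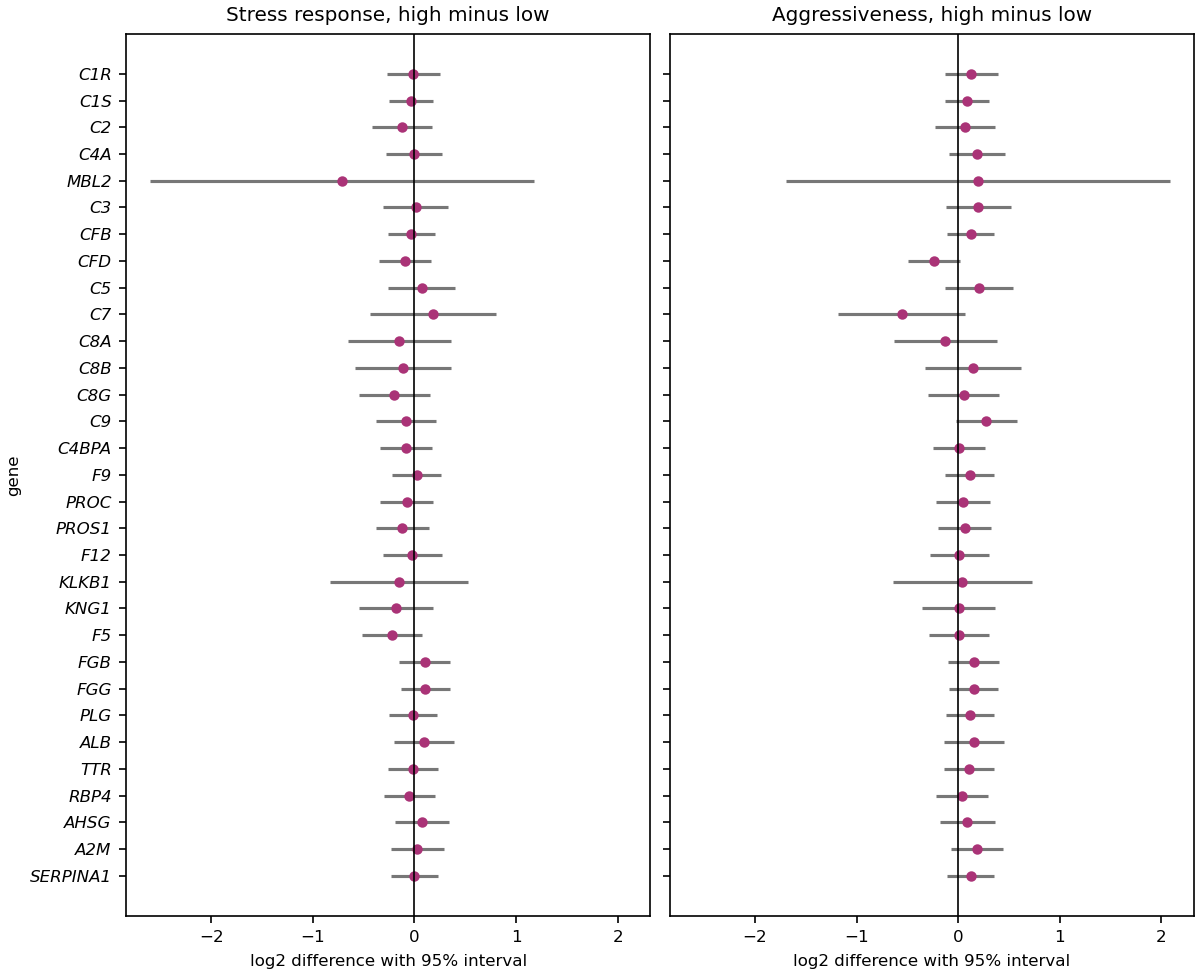
Points give each member's log2 difference between high and low stress response (left) and between high and low aggressiveness (right), and lines give the 95% interval from limma, with 6 animals per level. All intervals include 0, and the widest belong to MBL2, C7, KLKB1, C8A and C8B.

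The second comparison asked the same of aggressiveness. Again 0 of 31 members passed the adjusted threshold, with 0 calls (0%) among all probe sets, and 0 had an unadjusted p below 0.05, against 3.22% of all probe sets. The levels were free of overlap for 0 of 31, against 0.0875%. The direction was one-sided: 28 of 31 members were above 0, with a median of 0.11, while 52.0% of all probe sets were above 0. The members were not independent of each other. As deposited, the median r was 0.66 between the 22 members with a mean above 10000, against 0.17 for all 483 such probe sets. Counts of direction, here and in the other comparisons, carry that limit. Of the 3 RNA quality controls on the arrays, 1 differed with the trait as well. The log2 ratio of 3' to 5' signal of the EF1A control, a measure of RNA and labelling quality, was 0.757 to 0.993 in high-aggressiveness pigs and 0.685 to 0.748 in low-aggressiveness pigs, without overlap. The ratio of the GAPDH control overlapped, at 0.606 to 1.03 and 0.696 to 1.01. That of the actin control overlapped too, at 4.67 to 5.34 and 4.49 to 5.44. The actin ratio was far above those of EF1A and GAPDH on every array, so it weighed most in the mean ratio of the 3 controls. This mean overlapped as well, at 2.15 to 2.40 and 1.99 to 2.34. With the mean ratio in the model the member median was 0.06 and 23 of 31 were above 0. With the EF1A ratio in the model the median was -0.05 and 11 of 31 members were above 0. After quantile normalization the median was 0.04 with 25 above 0, and without low-high 3 it was 0.06 with 23. Since the EF1A ratio separated the levels of the trait, the 2 cannot be told apart in these animals.

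Of the complement genes, 12 of 15 were above 0 for aggressiveness. C9 had the smallest p. Its signals were 17729, 13303 and 16719 in low-high pigs and 16434, 12649 and 17550 in high-high pigs, and 16987, 11575 and 12435 in low-low pigs and 12473, 10450 and 14184 in high-low pigs. All 6 high-aggressiveness pigs lay above the median of the low-aggressiveness pigs, but low-low 1 lay among the highest. The means were 15731 ± 2198 and 13017 ± 2299 (SD), and the difference was 0.28 ± 0.14 (SE; interval -0.02 to 0.57), not past the threshold (adjusted p = 1.00). C4A, the classical route component cleaved by C1s, differed by 0.18 ± 0.13, C3 by 0.20 ± 0.15, C5 by 0.21 ± 0.15 and CFB by 0.12 ± 0.11. With the EF1A ratio in the model, C3 was at -0.18 and CFB at -0.01.

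The members below 0 were CFD, C7 and C8A. CFD is factor D, the protease that activates factor B, and it is known as a product of fat cells and macrophages as well. Its signals were 1827, 1854 and 1774 in low-high pigs and 1561, 1749 and 1307 in high-high pigs, and 2112, 1845 and 1822 in low-low pigs and 1924, 1934 and 2178 in high-low pigs. Every high-aggressiveness pig was below the median of the low-aggressiveness pigs, and the overlap of the levels came from low-stress pigs. The difference was -0.24 ± 0.12 (interval -0.49 to 0.02). C7, the terminal component that anchors the forming pore in the membrane, averaged 636 ± 165 and 1005 ± 489, a difference of -0.56 ± 0.28 (interval -1.18 to 0.07), and -0.35 without high-low 3. C8A, the alpha chain of C8, differed by -0.12 ± 0.23.

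All 10 coagulation and fibrinolysis genes and all 6 carriers and inhibitors were above 0, by 0.01 to 0.19. FGG and FGB both gave 0.15 ± 0.11, ALB 0.15 ± 0.14, A2M 0.19 ± 0.12 and SERPINA1 0.13 ± 0.11, and PLG gave 0.12, TTR 0.11, AHSG 0.09 and RBP4 0.04. With the EF1A ratio in the model FGB was at -0.05 and ALB at -0.07. F5, F12, KNG1 and C4BPA lay within 0.02 of 0, with intervals between -0.36 and 0.37.

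The crossed design also asks whether the difference for one trait depends on the other. For this interaction 0 of 31 members passed the adjusted threshold (0% of all probe sets) and 0 had an unadjusted p below 0.05, against 3.87% of all probe sets. The median was -0.05, with 11 above 0 and 20 below, against 49.4% of all probe sets above 0, and after quantile normalization 19 members were above 0. C7 had the smallest p. Its signals were 815, 766 and 601 in low-low pigs, 561, 952 and 633 in low-high pigs, 1466, 620 and 1764 in high-low pigs and 632, 548 and 488 in high-high pigs. High-low 1 and high-low 3 stood above all others, and high-low 2 lay among the other groups. The interaction was -1.01 ± 0.51 (SE; interval -2.13 to 0.11), and -0.69 without high-low 3. The second C7 probe set, of lower signal, gave -0.79 ± 0.58. Stellate cell markers were read beside C7, since mesenchymal cells are known to make it. Of 8 markers 5 were on the array and none was at 0, and their summed signal was 4654 to 8621 in high-low pigs, 4258 to 5817 in high-high pigs, 4429 to 7697 in low-high pigs and 3465 to 4790 in low-low pigs. High-low 1 had the highest sum. High-low 3, with the highest C7 signal, had a sum of 5559, below low-high 2 (7697), low-high 1 (6368) and high-high 2 (5817). For the interaction 1 of the 5 markers was above 0 and 4 were below, with a median of -0.37, the same direction as C7. For stress response and for aggressiveness 3 were above 0 and 2 below. The part of these cells in the C7 values was not tested.

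C8B, the beta chain of C8, gave an interaction of 0.71 ± 0.40 (interval -0.17 to 1.59). Its signals were 13092, 12180 and 15048 in low-low pigs, 14099, 9189 and 11964 in low-high pigs, 10748, 13109 and 6409 in high-low pigs and 14517, 15979 and 11078 in high-high pigs. High-low 3 was lowest of all 12, and without that pig the interaction was 0.39. The second C8B probe set gave 0.29 ± 0.36. C4BPA gave 0.31 ± 0.23 and CFD -0.31 ± 0.23.

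Across the 6 pairs of groups, which share animals and are not independent, no member passed the adjusted threshold, which was met by 0.0125% of all probe sets for high-high minus high-low and by 0% for the other pairs. At an unadjusted p of 0.05 members appeared in 1 pair, high-high minus high-low, with 2 of 31 against 3.63% of all probe sets, both lower. The other pairs had 0 of 31, where the share of all probe sets was 5.12% for high-low minus low-low, 6.13% for high-high minus low-high, 3.19% for low-high minus low-low, 5.8% for high-high minus low-low and 4.3% for high-low minus low-high. C7 was 556 ± 72 (SD) in high-high and 1284 ± 593 in high-low pigs, a difference of -1.06 ± 0.36 (limma's unadjusted p = 0.0134, adjusted p = 0.999). CFD was 1539 ± 222 and 2012 ± 144, a difference of -0.39 ± 0.16 (unadjusted p = 0.0357, adjusted p = 0.999). All 3 high-high pigs lay below all 3 high-low pigs for CFD, 1 of 31 members (3.23%), near the 3.76% of all probe sets. For C7 the groups overlapped through high-low 2. In the other direction, all 3 high-high pigs lay above all 3 high-low pigs for C5, CFB, C4BPA, F9, PLG and A2M. The share of all probe sets separated that way was not counted, so this list cannot be read as a result about the members. After quantile normalization the groups overlapped for CFB, C4BPA, PLG and A2M and stayed apart for C5 and F9. The summed signal of cholangiocyte markers also separated these groups, at 655 to 768 in high-high pigs and 1015 to 1138 in high-low pigs. It was 614 to 3580 in low-low pigs and 576 to 1044 in low-high pigs. Of 6 markers 5 were on the array, none at 0, and the lowest, SOX9, averaged 8.7. The markers were not alike: for aggressiveness 1 of 4 tested was above 0 and 3 were below. The sums of the other marker lists overlapped between high-high and high-low pigs. The part of cholangiocytes in the C7 and CFD values was not tested. The count of members at an unadjusted p below 0.05 was 0 under males only and under either ratio of 3' to 5' signal as a covariate, and 0 without high-low 1 or without the 3 arrays of lowest correlation. In the same comparison among low-stress pigs, low-high minus low-low, C7 differed by -0.05 ± 0.36 and CFD by -0.08 ± 0.16. The F test over the 4 groups gave 0 of 31 members below an unadjusted p of 0.05, against 4.69% of all probe sets, and the smallest p was 0.0725, for C7. In high-low minus low-high pigs 29 of 31 members were below 0, where 52.5% of all probe sets were above 0. After quantile normalization 9 members were above 0 in that pair, and without low-high 3 there were 11.

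Between males and females, 8 and 4 animals, 0 of 31 members passed the adjusted threshold, against 0.0688% of all probe sets (11 of 15999), and 0 had an unadjusted p below 0.05, against 5.21%. The sexes were free of overlap in 0 of 31, against 0.444%. The median of the members, male minus female, was -0.12, with 27 of 31 below 0, while 41.8% of all probe sets were above 0. A2M was 38296 ± 4089 in males and 45207 ± 6568 in females, a difference of -0.24 ± 0.12, and all 8 males lay below the females' median. C5, the source of the C5a peptide, differed by -0.27 ± 0.16 and AHSG by -0.21 ± 0.13. Without low-high 3, the female with the highest values, the member median was -0.06. Without high-high 3, another female, it was -0.21, with 1 member above 0 and 3 at an unadjusted p below 0.05. The share of all probe sets below 0.05 in that fit is not given here, so the 3 members have no background beside them.

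Most members varied little between animals of a group. The median within-group SD on the log2 scale was 0.19 for the members and 0.32 for all probe sets tested, and 0.14 and 0.31 after quantile normalization. These sets differ in brightness: 22 of 31 members had a mean signal above 10000, against 3.02% of all probe sets. The spread of equally bright probe sets is not given here. C1S, the protease that cleaves C4 and C2, had the smallest SD (0.09), with signals from 26972 to 34652, a 1.28-fold range. C4BPA followed with 0.12 and a range from 15001 to 20127. The spread was largest for MBL2 (1.65), KLKB1 (0.65), C7 (0.46) and C8A (0.44).

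MBL2 encodes a mannose-binding lectin, which recognises sugars on microbes and starts the lectin route. Its signals were 3148, 2750 and 466 in low-low pigs, 2225, 3198 and 8484 in low-high pigs, 2549, 2265 and 1562 in high-low pigs, and 2214, 4869 and 116 in high-high pigs. High-high 3 and low-low 3 were far below the rest and low-high 3 was above them, a 73.1-fold range. Of the 12 pigs, 8 lay between 1562 and 3198. The difference for stress response was -0.71 ± 0.86 (interval -2.60 to 1.17), and it was 0.27 without high-high 3 and 0.51 in males only. For aggressiveness it was 0.20 ± 0.86 (interval -1.69 to 2.08), and it was -0.36 without low-low 3. MBL2 had 1 probe set. The direction of MBL2 between the traits' levels therefore rested on single animals.

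KLKB1, the plasma prekallikrein that releases bradykinin from kininogen, ranged from 1345 in low-high 2 to 5073 in low-high 3, a 3.77-fold range within 1 group. High-high 2 and low-low 1 were also high, at 4566 and 4319. C8A was 6068 in low-high 2, 5366 in high-low 3 and 5833 in high-high 3, and between 8722 and 11258 in the other 9 pigs. The 3 low animals came from 3 groups. KLKB1 and C8A differed for stress response by -0.15 ± 0.31 and -0.15 ± 0.23.

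**Figure D4:**
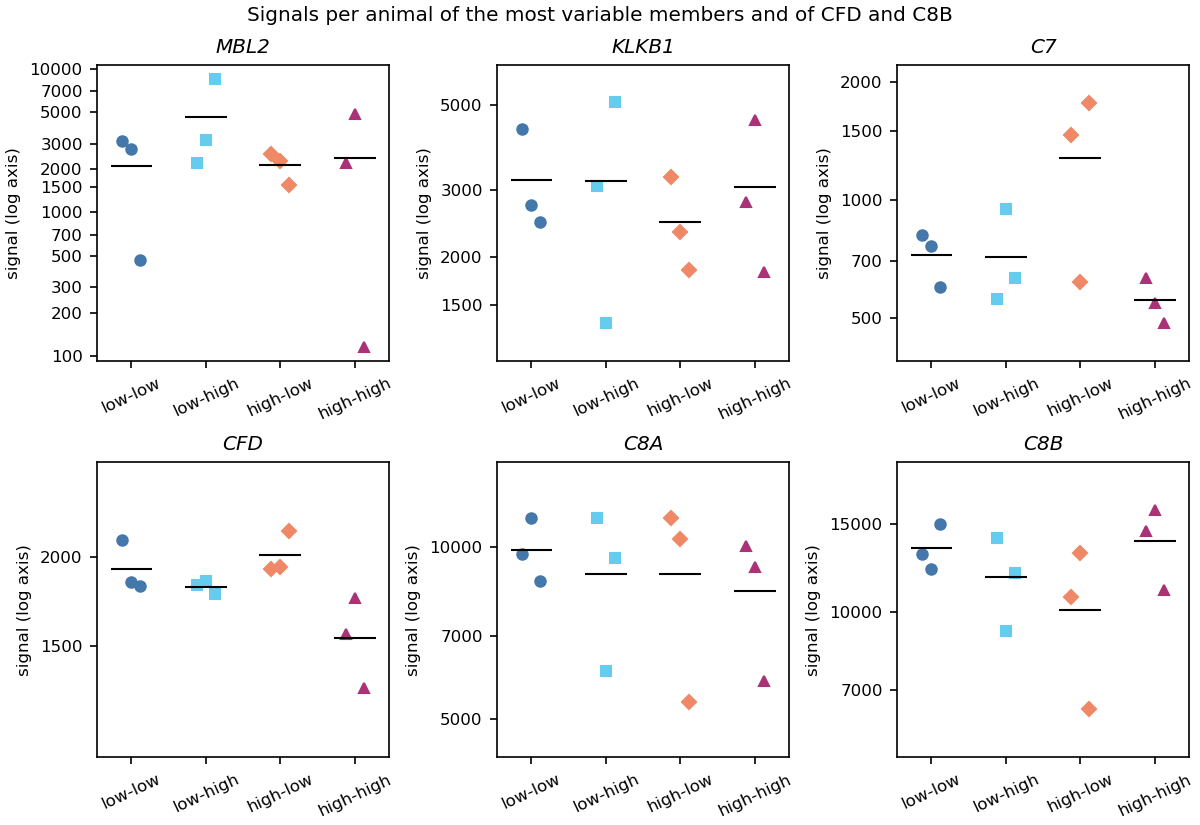
Points give the signal of each animal on log axes for MBL2, KLKB1, C7, CFD, C8A and C8B, by group (stress response and then aggressiveness), and lines give the mean of the 3 animals. MBL2 spans 116 to 8484, and among the genes drawn only CFD has the high-high pigs wholly below the high-low pigs.

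Genes for chains or partners of one plasma complex were compared over the 12 animals, with 6 pairs tested and two-sided permutation p-values from 100000 resamples adjusted over the 6. FGB and FGG, chains of fibrinogen, had r = 0.88 (rho = 0.85, permutation p = 0.00014, adjusted 0.0003; rho p = 0.00095, adjusted 0.0019). C1R and C1S, the proteases of the C1 complex, had r = 0.88 (rho = 0.92, permutation p = 0.00015, adjusted 0.0003; rho p = 7e-05, adjusted 0.00039). TTR and RBP4, which circulate together, had r = 0.90 (rho = 0.91, permutation p = 4e-05, adjusted 0.00024; rho p = 0.00013, adjusted 0.00039). Without the 2 animals farthest from the median of the first gene, r was 0.87, 0.76 and 0.84.

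These 3 correlations depended on the scaling of the arrays. After quantile normalization r was 0.36 for FGB and FGG, -0.18 for C1R and C1S and 0.06 for TTR and RBP4, with adjusted permutation p-values of 0.502, 0.692 and 0.850. These genes are among the brightest, and this normalization gives the top ranks nearly the same values on every array. It therefore removes variation that they share, whatever its source. On the log2 scale TTR spanned 15.08 to 15.63 as deposited and 15.23 to 15.36 after it. Over all 465 pairs of members the median r was 0.42 as deposited and 0.14 after quantile normalization. Among probe sets with a mean above 10000 it was 0.66 and 0.15 for the 22 members and 0.17 and 0.00 for all 483.

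The chains of C8 gave lower values. C8A and C8B had r = 0.70 (rho = 0.33, permutation p = 0.0121, adjusted 0.0182; rho p = 0.297, adjusted 0.320), and C8A and C8G had r = 0.68 (rho = 0.55, permutation p = 0.0169, adjusted 0.0203; rho p = 0.0708, adjusted 0.106). C8B and C8G had r = 0.43 (rho = 0.31, permutation p = 0.166, adjusted 0.166; rho p = 0.320, adjusted 0.320). After quantile normalization the 3 values were 0.66, 0.61 and 0.30, none past the threshold (adjusted permutation p = 0.118, 0.120 and 0.535). The relation of C8A with C8B and with C8G rested on the low animals: without high-high 3 and high-low 3 r was 0.42 and 0.26, and without high-low 3 alone it was 0.48 and 0.59, no longer past the threshold. C8A with C8B also missed it without low-high 2 (0.65), and C8A with C8G without high-high 3 (0.56). With the group means removed the 3 correlations were 0.84, 0.78 and 0.73.

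**Figure D5:**
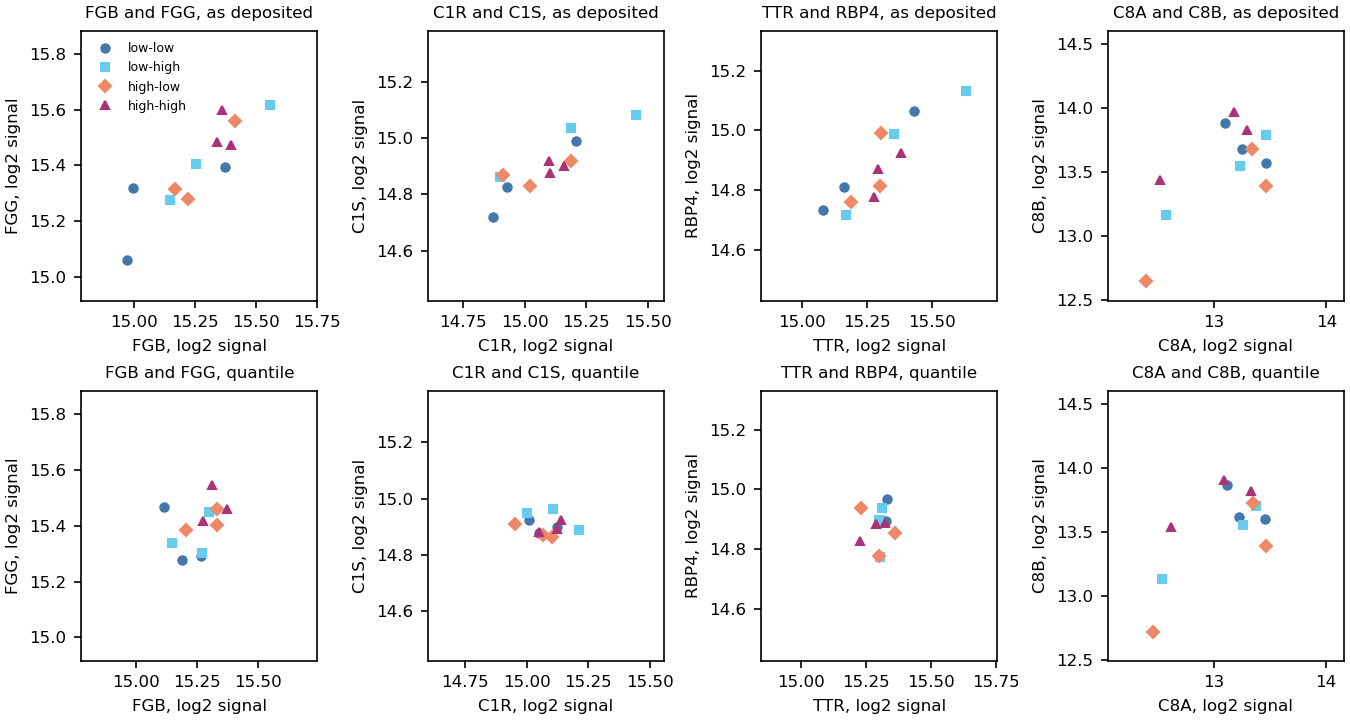
Each point is an animal, placed by the log2 signals of 2 partner genes, as deposited (top) and after quantile normalization (bottom), with symbols for the 4 groups and equal spans on both axes of a pair. The points of FGB and FGG, C1R and C1S, and TTR and RBP4 lie along a line at the top and in a round cloud at the bottom, while C8A and C8B keep the same low animals.

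Other probe sets of the same gene, all past the filter, were not always alike. The second probe set of C8G followed the chosen one with r = 0.97 and gave -0.24 ± 0.18 for stress response. The 3 further KNG1 probe sets had r from 0.67 to 0.86 with the chosen one, and 1 of them gave -0.40 ± 0.18 for stress response (limma's unadjusted p = 0.0407), against -0.18 for the chosen one. The second FGG probe set gave 0.89 ± 0.46 for stress response against 0.11 for the chosen one and had r = 0.24 with it. The second probe sets of C9 and CFB had r = 0.14 and -0.12, and that of CFB gave -0.20 ± 0.11 for aggressiveness where the chosen one gave 0.12. The second RBP4 probe set gave 0.35 ± 0.19 for aggressiveness against 0.04 for the chosen one. For sex, an A2M probe set of lower signal gave -0.53 ± 0.17 (limma's unadjusted p = 0.0103) against -0.24, and an F9 probe set of lower signal gave 0.29 ± 0.13 (unadjusted p = 0.0462) against -0.06.

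Genes of the same pathways outside the 46 were read from lists. Of 14 other complement genes tested, 7 were above 0 and 7 below for stress response and 9 and 5 for aggressiveness, with none past the adjusted threshold. CD46, a membrane regulator that helps to cleave C3b and C4b, gave 0.43 ± 0.17 for stress response (limma's unadjusted p = 0.0276, adjusted 0.572), and C1QA, a chain of the C1q recognition unit from macrophages, -0.21 ± 0.15. For aggressiveness CFP, the stabiliser properdin, gave 0.26 ± 0.17 and VTN, vitronectin, 0.13 ± 0.10. Of 11 other coagulation genes, 7 and 4 were above and below 0 for stress response and 6 and 5 for aggressiveness, none past the threshold. HRG, histidine-rich glycoprotein, gave -0.33 ± 0.18 for stress response and 0.26 ± 0.18 for aggressiveness, SERPIND1, heparin cofactor II, gave -0.32 ± 0.22 for stress response, and PLAT, tissue plasminogen activator, gave -0.46 ± 0.27 for aggressiveness at low signals (71.5 ± 34.3 and 98.1 ± 25.7).

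Of 17 other carriers and inhibitors, 6 were above 0 and 11 below for stress response, and 15 above and 2 below for aggressiveness, none past the threshold. SERPINA6 encodes the cortisol carrier corticosteroid-binding globulin. It was 2358 ± 1412 in high-stress pigs and 4493 ± 1010 in low-stress pigs, with overlap, a difference of -1.06 ± 0.31 (limma's unadjusted p = 0.00581, adjusted 0.523). APCS, serum amyloid P, gave 0.22 ± 0.12. For aggressiveness HPX, the haem carrier hemopexin, gave 0.16 ± 0.12 and ITIH4 0.17 ± 0.13. With the EF1A ratio in the model HPX was at -0.08 and VTN at -0.02.

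Of 8 regulators of liver and acute phase genes tested, 6 were above 0 and 2 below for either trait, none past the adjusted threshold. IL1R1, a receptor for interleukin 1, was 2752 ± 825 in high-stress pigs and 1575 ± 231 in low-stress pigs, a difference of 0.76 ± 0.19 (limma's unadjusted p = 0.00195, adjusted 0.523). STAT3, which carries the interleukin 6 signal to fibrinogen and other acute phase genes, was 5547 ± 1634 and 3541 ± 507, a difference of 0.61 ± 0.20 (unadjusted p = 0.0104, adjusted 0.530). The levels overlapped for both genes. Fibrinogen chains, C3 and CFB are known to respond to interleukin 6 or interleukin 1. Their chosen probe sets gave 0.11 (FGG), 0.10 (FGB), 0.01 (C3) and -0.03 (CFB) in the same comparison. The second FGG probe set gave 0.89 ± 0.46. A link between these genes and IL1R1 or STAT3 was not tested. For aggressiveness CEBPD and CEBPB, transcription factors of the acute phase, gave 0.24 ± 0.22 and 0.14 ± 0.14.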

How the data were processed

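Total RNA from 12 pig livers was hybridized to the Affymetrix porcine array, 1 array per animal. The authors deposited probe set signals as linear intensity values, made with GCOS 1.1.1 per the submitters' processing notes. The mean after trimming 2% was 500.2 on every array, so values had been scaled per array. The number of arrays limits the precision. Groups came from the labels. The members, lists and tests were chosen with earlier results of these data known.

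The 124 control probe sets and then the lowest 33.3% of 23999 by mean were left out, leaving 15999. Signals were taken as log2(signal + 16). limma 3.58.1 in R 4.3.3 was fitted with stress response, aggressiveness and sex (8 residual degrees of freedom), and with the interaction (7). Benjamini-Hochberg adjustment covered the 15999 probe sets. Gene names came from the array's annotation table: 10099 probe sets had 1 symbol, 198 several and 13826 none. Errors are SE of log2 differences or SD between animals. The fits and the permutation test were tested on simulated data. Figures used matplotlib 3.10.9 in Python 3.11.15.

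Members named with values were those with the smallest unadjusted p (5 for stress response, 5 for aggressiveness, 4 for the interaction, 3 for sex), the 4 with the highest and 2 with the lowest SD within groups, and a list of central plasma proteins; further members are given by single values or ranges. From each pathway list the 2 genes with the smallest p for either trait were named. Alternatives were no filter or 50% left out, pseudocounts of 1 and 64, quantile normalization, median centring, no sex term, males only, trend and robust variance, the mean over probe sets, 3' to 5' ratios as covariates, and each animal left out; leaving out the 3 arrays with the lowest correlations was added after the data were seen. A search of promoter sequences was not run.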

Additional observations from a re-analysis of the deposited data

Results flagged for a closer look

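For members named for a trait, the highest or lowest of the 6 animals of a level was set against the others by Dixon's ratio, the gap to the nearest animal over the whole range, with a critical value of 0.625 for 6 animals. Of 46 levels tested 4 exceeded it, where chance flags about 1 in 20. MBL2 accounted for 3 of them: high-high 3 (signal 116) was apart with a ratio of 0.687 among high-stress pigs and 0.679 among high-aggressiveness pigs, and low-low 3 (466) with 0.630 among low-aggressiveness pigs. CFD of low-low 1 (2112) was apart with a ratio of 0.747 among low-stress pigs, on the high side. Groups of 3 animals were not tested.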

How the results depend on the processing

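No member passed the adjusted threshold in any comparison under any alternative run. The count of all probe sets past it went from 0 to 1 for stress response and for the interaction when 1 animal was left out, and was 1 for the interaction without the 3 arrays. For sex it was 7 with 50% left out. For the 6 pairs of groups it was 0 to 2. Members with an unadjusted p below 0.05 numbered 0 for stress response, 0 to 3 for aggressiveness and for sex, and 0 to 2 for the interaction. The shares of all probe sets under these alternatives are not given here, so these counts have no background beside them. The member median of high-high minus high-low was -0.11 with the EF1A ratio in the model.

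Named genes that turned sign were, for stress response, MBL2 (0.51 in males only, 0.37 without the 3 arrays, -1.27 to 0.27 leaving out 1 animal), CFD (0.0038 in males only), C7 (-0.020 to 0.35 leaving out 1 animal) and C9 (0.24 as the mean over probe sets). For aggressiveness, with the EF1A ratio in the model, they were FGB (-0.047), C3 (-0.18), ALB (-0.067), CFB (-0.015), MBL2 (-0.47), HPX (-0.082) and VTN (-0.018). CFB was at -0.038 as the mean over probe sets, and MBL2 was at -0.36 to 1.18 leaving out 1 animal. The EF1A ratio separated the levels of aggressiveness, so the values with it in the model do not tell the trait from that ratio. The cause was not tested.

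Of the partner genes, quantile normalization gave r = 0.36 for FGB and FGG, 0.66 for C8A and C8B, 0.61 for C8A and C8G, 0.064 for TTR and RBP4 and -0.18 for C1R and C1S, none past the threshold. Removing group means took C8B and C8G past it (0.73). Leaving out 1 animal gave 0.48 to 0.78 for C8A and C8B and 0.56 to 0.75 for C8A and C8G. No paired analysis was possible because the replicate numbers only name animals.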
